A study of Mus musculus with 2 samples.

Results

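The genes of the mouse Akr1b and Akr1c groups of aldo-keto reductases were examined in adrenal gland RNA. They were chosen by symbol: Akr1b3, Akr1b7, Akr1b8, Akr1b10, Akr1c6, Akr1c12, Akr1c13, Akr1c14, Akr1c18 and Akr1cl, which makes 10 of the 43346 mouse genes in the deposited tables. The glands came from adult C57BL/6J mice at 8 weeks of age, described in the labels as mixed-sex littermates, with no treatment named. The study has 1 group of 2 libraries, biological replicates 1 and 2, made from 2 biosamples that the labels place under 1 donor entry. The sources used here do not give the number of animals behind each library. RNA over 200 nt was depleted of ribosomal RNA, selected for poly(A), and sequenced with strand kept as pairs of 76 nt. Values are TPM, the share of a transcript after division by its length, and means carry the SD over both libraries (n = 2).

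Aldo-keto reductases are soluble enzymes that use NADPH to reduce aldehydes and ketones to alcohols, and several also act on the reverse reaction. The Akr1b group holds aldose reductase, which turns glucose into sorbitol, and relatives that act on lipid-derived aldehydes. The Akr1c group holds hydroxysteroid dehydrogenases, which interconvert ketones and alcohols at set positions of the steroid skeleton. In the adrenal cortex, side-chain cleavage of cholesterol releases isocaproaldehyde, a reactive aldehyde that Akr1b7 can reduce, and Akr1b7 is known there as an ACTH-responsive gene. Akr1c18 is 20-alpha-hydroxysteroid dehydrogenase, which inactivates progesterone and is known as a marker of the X zone, the inner cortical zone of young mice that regresses at puberty in males and in a first pregnancy in females.

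Expected counts on mouse genes summed to 47615328 in replicate 1 and 52890686 in the other library. The 7 cortex markers listed were all detected, led by Cyp21a1, Hsd3b1 and Star, with a summed 22690 TPM in replicate 1 and 30675 TPM in replicate 2. All 6 medulla markers were detected too, led by Chga, Pnmt and Th. By adjusted p, 3 of them were higher in replicate 1 and 1 in replicate 2. Chgb was called higher in replicate 1 (290 and 147 TPM), and Pnmt was higher in replicate 2 by less than 2-fold (381 and 593 TPM). The libraries differed in their levels of markers of other tissues. The 6 adipose markers, led by Cfd, Ucp1 and Plin1, summed to 12272 TPM in replicate 1 and 5274 in replicate 2, and Cfd and Ucp1 were called. The stomach and intestine markers summed to 66.3 and 22.5 TPM, with Pgc, Tff1 and Gkn1 called higher in replicate 1 and Lgals4 at 22.5 and 20.4 TPM. Of the pancreas markers, Clps was at 53.4 and 1.63 TPM and was called, whereas Cela2a and Prss2 were below 1 TPM in both libraries. The liver markers summed to 6.19 and 35.4 TPM, and Ahsg, Serpina1a, Alb, Apoa1, Ttr and Cps1 were all called higher in replicate 2. The kidney markers summed to 0.56 and 0.6 TPM, with Aqp2 at 17 and 27 counts, Slc34a1 at 13 and 1 and Slc12a3 at 2 and 0. Kap of the kidney, Fabp2 of the intestine and Cpa1 of the pancreas had 0 counts in both libraries. The macrophage markers, led by C1qc, C1qa and Cd68, summed to 358 and 345 TPM, and the endothelial markers, led by Plvap, Cdh5 and Kdr, to 790.2 and 685.9 TPM. Called here means a difference of at least 2-fold that passed the test described with the comparison of the libraries. The Y-linked genes Kdm5d, Eif2s3y, Ddx3y and Uty had 221, 79, 32 and 26 counts in replicate 1 and 0 counts in replicate 2, although the labels describe the experiment as mixed in sex.

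Sequence sets what these counts can separate, because members of a group resemble each other. Among the Akr1b members, Akr1b7, Akr1b8 and Akr1b10 shared 84.8% to 89.2% of coding bases with each other, and Akr1b3 shared 71.6% to 72.5% with them. Akr1c12 and Akr1c13 were the closest pair, with 96.2% of coding bases and 94.1% of translated residues identical. The other pairs of Akr1c members, Akr1cl included, shared 72.3% to 77.5% of coding bases. Akr1cl lies on chromosome 1, away from both clusters, and its closest member was Akr1c18, at 77.5% of coding bases.

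**Figure D1:**
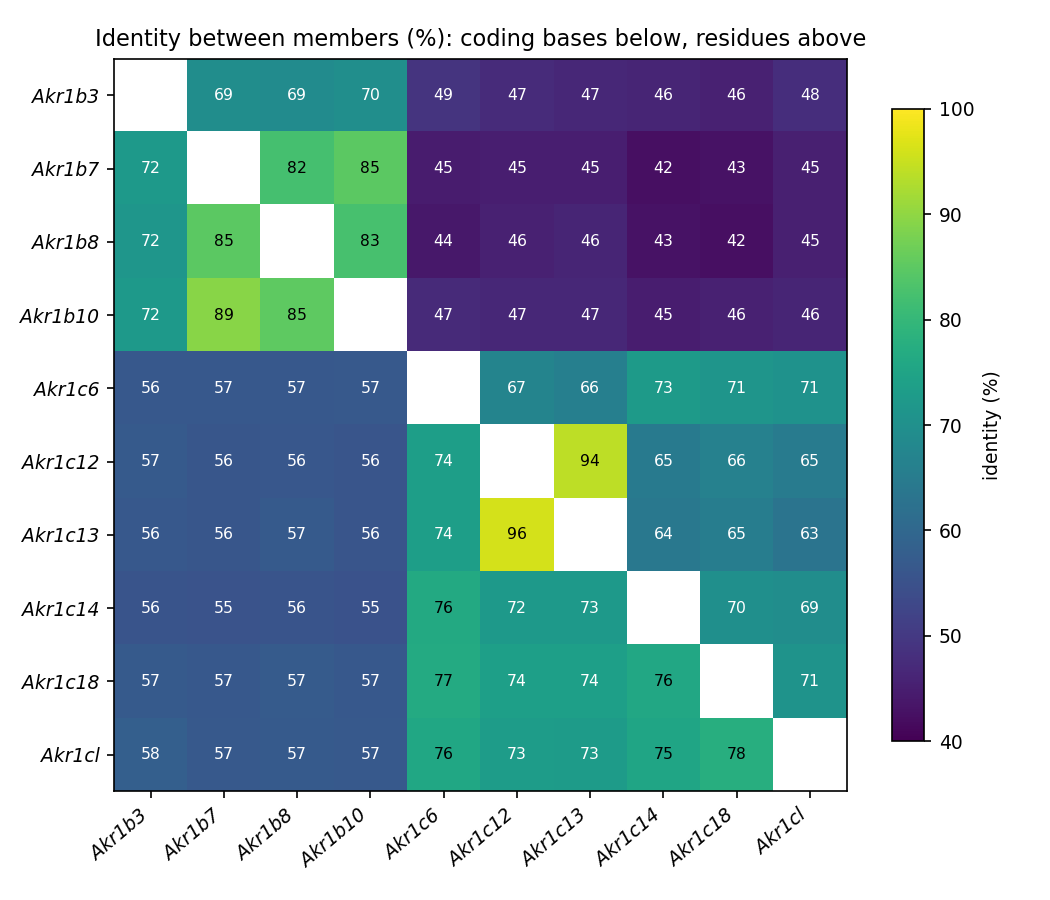
Percent identity between the coding sequences of the 10 members (lower triangle, bases) and between their translations (upper triangle, residues), from global alignments of 1 coding transcript per gene. The Akr1c12 and Akr1c13 pair stands out at 96.2% and 94.1%, and values between the Akr1b and Akr1c groups lie below those within a group.

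Akr1c12 and Akr1c13 are shown because their separation decides 2 of the levels below. Over the 76 coding bases from 339 to 414, counted from the first base of the start codon, they differ at 11 positions, which are in capitals:
Akr1c13: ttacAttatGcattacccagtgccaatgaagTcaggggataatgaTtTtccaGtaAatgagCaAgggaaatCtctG
Akr1c12: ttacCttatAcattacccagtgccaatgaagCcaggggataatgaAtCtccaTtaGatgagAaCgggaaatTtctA
Over coding bases 34 to 109 they are the same, so a read from this stretch fits both genes:
Akr1c13 and Akr1c12: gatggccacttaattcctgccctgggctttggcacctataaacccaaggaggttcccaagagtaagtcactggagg
In all, 201 of the 1187 windows of 76 bases in Akr1c13 (16.9%) also occur in Akr1c12. Akr1b3 shared 724 of its 1312 windows (55.2%) with processed pseudogenes, Gm6644, Gm6736 and Gm12138. Akr1c14 shared 159 of its 3108 windows (5.12%) with Gm18857, a pseudogene that overlaps it on the same strand and has no counts of its own here. Akr1b8 and Akr1b10 shared 5 windows, and Akr1b7, Akr1c6, Akr1c18 and Akr1cl shared none with any other annotated gene.

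The adrenal gland expressed 7 of the 10 members at 1 TPM or more in both libraries, beside 28.7% of all mouse genes in the tables at that level. Together the members held 887 TPM in replicate 1 and 1230 TPM in replicate 2, or 0.107% ± 0.0243 of mouse TPM. The 4 Akr1b genes took 579.4 and 761.9 TPM of this, and the 6 Akr1c genes, Akr1cl included, took 307 and 468 TPM. All 4 Akr1b genes were expressed, whereas most of the Akr1c sum came from Akr1c18 and Akr1cl.

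Akr1b7 had the highest level of the family (ENSMUSG00000052131.7, GRCm38 chromosome 6, 34412334 to 34423142, plus strand). Its level was 319 TPM in replicate 1 and 461 TPM in the other library, a mean of 390 ± 101 TPM. It was the top member in both libraries, and its lower value lay above the higher value of every other member. Relative to Cyp11a1, the enzyme that cleaves the cholesterol side chain, Akr1b7 was at 0.213 in replicate 1 and 0.241 in replicate 2. That ratio of TPM values moved less between the libraries than the level of Akr1b7 did. The ratio to Cyp11a1 was also higher in replicate 2 for Akr1cl (0.114 and 0.126) and Akr1c18 (0.0899 and 0.117). For Akr1b3 it was lower in replicate 2 (0.124 and 0.109).

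Akr1b3, aldose reductase (ENSMUSG00000001642.14, chromosome 6, 34302434 to 34317478, minus strand), was at 186 and 209 TPM, a mean of 197 ± 15.8 TPM. Its 6434.92 and 7951.66 expected counts were fractional because reads were split with sequence copies. The authors' posterior SD of those counts was 8.31 and 9.66, and the copy with most counts, Gm6644, was assigned 112.67 and 144.62. Read sharing as the authors resolved it was thus small beside the level of Akr1b3. Sord, sorbitol dehydrogenase, which acts after aldose reductase in the polyol pathway, was at 10.3 and 10.45 TPM. Akr1b3 was 18.1-fold above Sord in replicate 1 and 19.96-fold above it in replicate 2.

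Akr1b10 (chromosome 6, 34384218 to 34396950, plus strand) was at 53.7 and 63.8 TPM, a mean of 58.8 ± 7.10 TPM. Akr1b8, known as the fibroblast growth factor-regulated protein FR-1 (chromosome 6, 34354119 to 34368463, plus strand), was at 20.3 and 28.3 TPM, a mean of 24.3 ± 5.61 TPM. Their values in the 2 libraries did not overlap with each other or with those of any other member. Akr1b7, the closest relative of Akr1b10 by coding sequence, was 5.94-fold and 7.23-fold above it.

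Akr1cl (ENSMUSG00000025955.9, chromosome 1, 65012689 to 65032759, minus strand) had the highest mean of the Akr1c group. It was at 170 and 241 TPM, a mean of 205 ± 49.97 TPM. Akr1c18 (ENSMUSG00000021214.9, chromosome 13, 4132615 to 4150654, minus strand) was at 134 and 224 TPM, a mean of 179 ± 63.4 TPM. Akr1cl exceeded Akr1c18 in both libraries, by 1.26-fold and 1.07-fold, but the ranges of the 2 genes overlapped. Hsd3b1, which makes the progesterone that Akr1c18 can inactivate, was 21.1-fold above Akr1c18 in replicate 1 and 14.6-fold above it in replicate 2.

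The order of the levels was Akr1b7, Akr1b3, Akr1cl, Akr1c18, Akr1b10, Akr1b8 and Akr1c13 in replicate 1. In replicate 2 it was Akr1b7, Akr1cl, Akr1c18, Akr1b3, Akr1b10, Akr1b8 and Akr1c13. Only the places of Akr1b3, Akr1cl and Akr1c18 changed, and the ranges of these 3 genes overlapped pairwise. Akr1cl preceded Akr1c18 in both libraries, though by little in replicate 2. The place of Akr1b3 relative to Akr1cl and Akr1c18 is not set by these libraries.

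**Figure D2:**
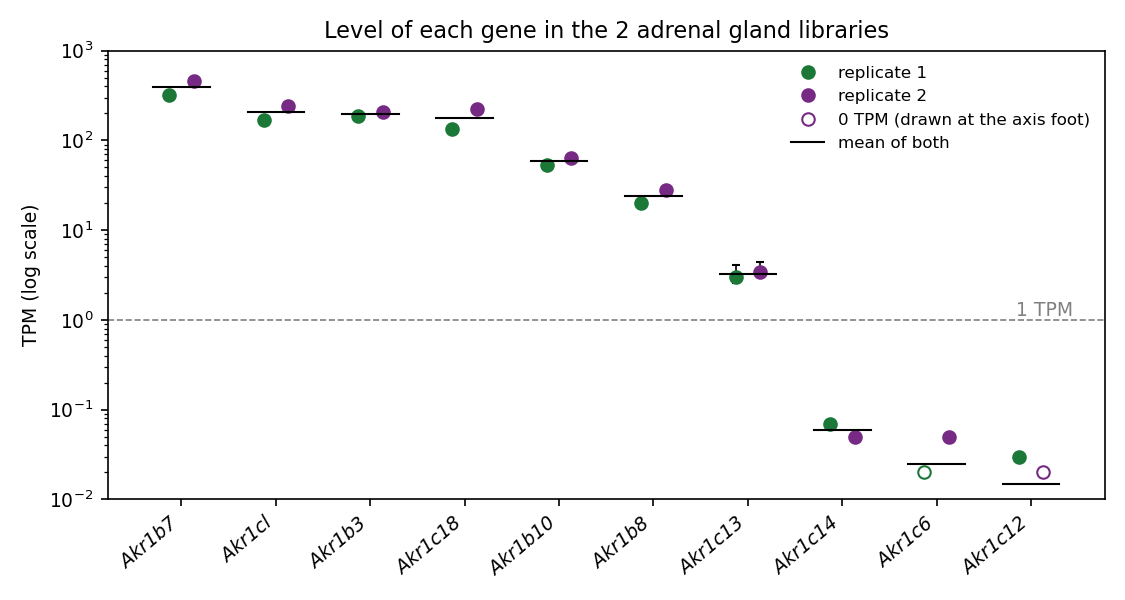
TPM of each member in replicate 1 (green) and replicate 2 (purple) on a log axis, with the mean of both as a black line, the authors' credibility interval as a bar for genes above 1 TPM, and values of 0 drawn as open circles at the foot. Akr1b7 lies highest at 319 and 461 TPM, and Akr1c14, Akr1c6 and Akr1c12 lie below 0.1 TPM in both libraries.

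Akr1c13 was low but measured (chromosome 13, 4191150 to 4205596, plus strand). It was at 3.02 and 3.44 TPM, a mean of 3.23 ± 0.297 TPM, from 105 and 127 rounded counts. Its near-identical neighbour Akr1c12 (chromosome 13, 4268176 to 4279433, minus strand) had 1 count in replicate 1 and none, 0, in the other library. Of the reads given to either gene, 99.1% (exact 95% Clopper-Pearson interval 94.9% to 99.98%) went to Akr1c13 in replicate 1, and 100% (97.1% to 100%) in replicate 2. Akr1c18 was 44.5-fold and 65.2-fold above Akr1c13.

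Akr1c14, a 3-alpha-hydroxysteroid dehydrogenase, had 6 and 4 counts (0.07 and 0.05 TPM). Akr1c6, the type 5 17-beta-hydroxysteroid dehydrogenase known from liver, had 1 count in replicate 2 and 0 in replicate 1. A count of 0 allows up to 0.136 TPM of Akr1c6 in replicate 1 and up to 0.0749 TPM of Akr1c12 in replicate 2, taking 3 counts as the limit. The authors' credibility intervals, whose level is not stated, reach higher, to 0.609 TPM and 0.0770 TPM in the same libraries. These limits and all intervals cover counting error only. The liver markers stood at 6.19 and 35.4 TPM in the same libraries, with Alb at 0.34 and 6.39 TPM.

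The 4 Akr1b genes lie within 1 cluster on chromosome 6 and every gene of it was expressed, apart from pseudogenes and antisense genes. The pseudogene Gm13859, between Akr1b8 and Akr1b10, had 2 and 5 counts, and Gm13858 had 0 in both libraries. Other genes overlap members on the opposite strand, Gm14546 at Akr1b3 and Gm13857 at Akr1b7, and both had 0 counts in both libraries. In the chromosome 13 cluster, Akr1c18 stood between the near-silent Akr1c14 and the low Akr1c13. Of the genes there that are not members, Akr1c19 had 2 and 0 counts, and Akr1c20 and Akr1c21, the latter a kidney 17-alpha-hydroxysteroid dehydrogenase, had 0 counts in both. Akr1e1, which reduces 1,5-anhydrofructose, was at 1.04 and 1.42 TPM at the far end of the cluster.

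**Figure D3:**
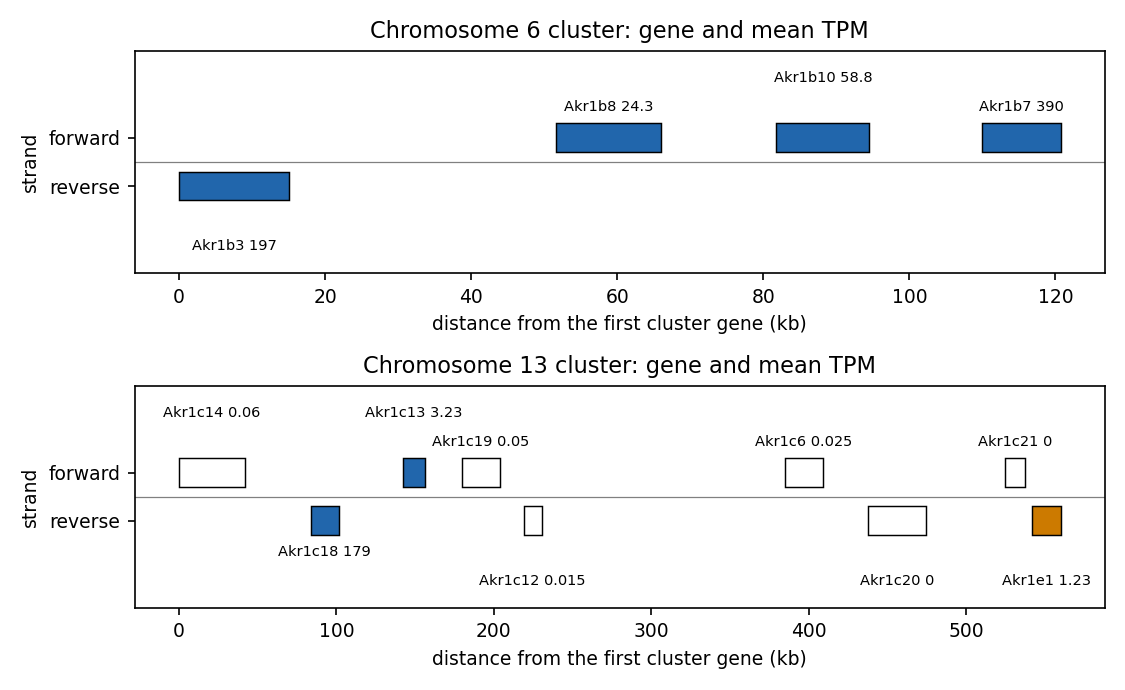
Position and strand of the Akr genes in the chromosome 6 cluster (upper) and the chromosome 13 cluster (lower), as distance in kb from the first gene, each labelled with its mean TPM. Filled genes reached 1 TPM in both libraries (blue for members, orange for Akr1e1) and open genes did not. All 4 genes are filled in the upper map, and Akr1c18, Akr1c13 and Akr1e1 are filled in the lower.

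Sequence upstream of the start was compared for Akr1c12 and Akr1c13, since their levels differ while their coding sequences nearly match. From the RefSeq promoters, bases before the first annotated transcript start are given 5′ to 3′ on the strand of the gene, with bases not matched in the alignment in capitals. Of 213 aligned positions, 203 (95.3%) were identical. The Akr1c13 stretch is chr13:4190937-4191149 (GRCm38, plus strand) and the Akr1c12 stretch is chr13:4279434-4279649 (GRCm38, minus strand):
Akr1c13: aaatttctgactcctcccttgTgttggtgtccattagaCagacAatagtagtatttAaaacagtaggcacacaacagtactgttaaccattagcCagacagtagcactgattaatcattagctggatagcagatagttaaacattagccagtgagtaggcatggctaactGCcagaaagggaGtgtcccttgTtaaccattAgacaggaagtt
Akr1c12: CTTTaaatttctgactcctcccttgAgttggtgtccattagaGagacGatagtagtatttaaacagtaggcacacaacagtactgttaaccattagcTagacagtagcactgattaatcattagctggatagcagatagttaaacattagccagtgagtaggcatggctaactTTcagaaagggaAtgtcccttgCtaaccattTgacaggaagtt
The genes thus resemble each other both upstream and in the coding part.

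In the 250 bases before each RefSeq start, matches were sought to AAGGTCA, the half-site bound by the steroidogenic factor Nr5a1, and to TGACNNNGC, the core of the antioxidant element bound by Nrf2, on both strands. The table held a promoter for 9 of the 10 members. Akr1b7 had an Nr5a1 half-site with its first base 248 bases before the start and Akr1b10 had one 215 bases before it. Akr1cl had an antioxidant core 166 bases before the start. The 2 motifs can overlap, and 4.08% of all 32851 promoters held the first, 10.2% the second and 0.621% both. A match describes letters in this window and is no evidence of binding. The 2 stretches with the half-site are shown with its letters in capitals (TGACCTT, the motif read on the other strand). They are chr6:34412112-34412333 and chr6:34383997-34384217 (GRCm38, plus strand):
Akr1b7: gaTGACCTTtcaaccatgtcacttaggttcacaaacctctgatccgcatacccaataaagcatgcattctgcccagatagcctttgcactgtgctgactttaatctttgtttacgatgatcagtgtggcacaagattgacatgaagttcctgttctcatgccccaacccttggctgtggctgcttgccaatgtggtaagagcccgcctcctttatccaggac
Akr1b10: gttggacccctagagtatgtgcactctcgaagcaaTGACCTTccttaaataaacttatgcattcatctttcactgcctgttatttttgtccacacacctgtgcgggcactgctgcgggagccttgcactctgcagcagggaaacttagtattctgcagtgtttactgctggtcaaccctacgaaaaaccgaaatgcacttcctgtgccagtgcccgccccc

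The deposited transcript tables split each gene's TPM over its annotated isoforms. Akr1b7 has only 1 annotated transcript, Akr1b7-201, so its share of 100% was fixed beforehand. Akr1b8 was assigned wholly to the coding transcript Akr1b8-201 in both libraries, and Akr1b8-202 had 0 counts. Akr1b10 was led by a transcript annotated as a target of nonsense-mediated decay, the pathway that degrades RNAs with an early stop codon. This transcript, Akr1b10-203, held 38.0 of 53.7 TPM in replicate 1 and 50.5 of 63.8 TPM in replicate 2, a mean share of 75.01% ± 6.03. The full-length coding transcript, Akr1b10-201, held 23.4% and 15.8%. The authors' posterior SD was 36.7 counts on the 1434 counts of Akr1b10-203 in replicate 1 and 34.5 on its 2054 in replicate 2.

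The 2 transcripts differ at the start of exon 4, where Akr1b10-203 lacks 25 bases (chr6:34390055-34390079, GRCm38, plus strand), at the start of exon 1, where it lacks 63 bases, and at the end of exon 10, where it lacks 3 bases. Its annotated coding part has 435 bases and ends in exon 5, against 948 bases in Akr1b10-201. The missing part of exon 4 is in capitals, with 25 bases on either side in the spliced RNA:
Akr1b10-201: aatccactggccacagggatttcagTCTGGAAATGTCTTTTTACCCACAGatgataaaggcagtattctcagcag
Akr1b10-203: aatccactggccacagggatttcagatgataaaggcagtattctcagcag
Which of these differences the assignment of reads rests on was not tested.

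The other expressed members were led by coding transcripts. Akr1b3-201 held 72.3% and 74.2% of Akr1b3, and Akr1b3-204, a fragment of the last 2 exons annotated as a retained intron, held 27.0% and 24.4%. These are shares per length, and Akr1b3-204 has only 554 bases. Its last exon of 406 bases is the same in Akr1b3-201. Its other exon, of 148 bases, contains all 83 bases of exon 9 of Akr1b3-201. By counts, Akr1b3-204 was assigned 626 and 694 (posterior SD 42.9 and 50.3), against 5665 and 7014 for Akr1b3-201. Akr1c18-201 held 85.0% and 87.3% of Akr1c18, and the rest went to Akr1c18-202, which lacks exon 4 of 78 bases. Akr1cl-201 held 71.6% and 75.7% of Akr1cl, and Akr1cl-206, which lacks exon 2 of 121 bases, held 16.5% and 10.6%. Akr1c13-201 held 90.4% and 84.3% of the low level of Akr1c13.

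**Figure D4:**
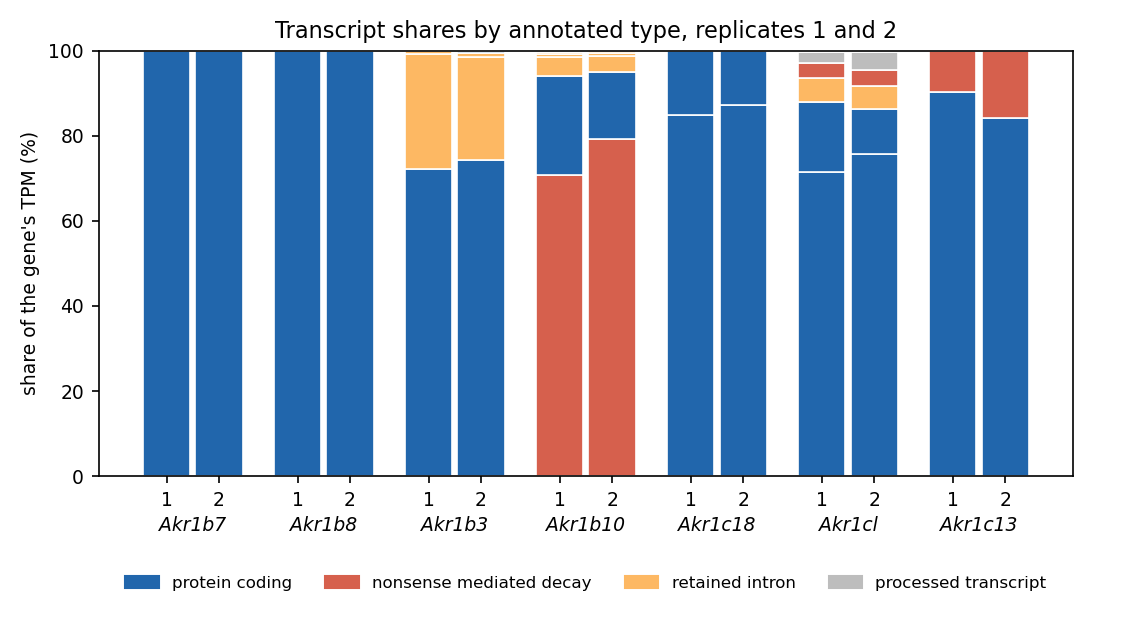
Share of each gene's TPM (percent) assigned to its annotated transcripts in replicates 1 and 2, stacked and coloured by annotated transcript type. Akr1b10 is led by the nonsense-mediated decay type at 70.7% and 79.3%, and the other 6 genes are led by a coding transcript. For Akr1b7 that is the only annotated transcript.

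Between the 2 libraries, 6 of the 7 members with enough counts to test were higher in replicate 2 by adjusted p, beside 29.0% of all 15824 genes tested that were higher in replicate 2 and 29.2% that were higher in replicate 1. That direction holds with TMM scaling to all genes and with scaling to spike-ins. It flips for 6 of the 7 when ratios are scaled to the median of the cortex markers. This was an exact binomial test with Benjamini-Hochberg adjustment over all genes tested. It sets the reads of 1 library against those of the other and is no test of a condition. None of the 7 reached a 2-fold difference, a size that 6.92% of all genes tested passed together with the adjusted p. The median log2 ratio of replicate 1 over replicate 2 was -0.43 over the 7 members and 0.00 over all genes tested.

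Akr1c18 had the largest difference among the members tested, at 1.63-fold higher in replicate 2. Its log2 ratio was -0.70 (exact 95% interval -0.75 to -0.65, binomial test adjusted p = 3.1e-160). Akr1b7 followed at -0.49 (-0.52 to -0.46), Akr1cl at -0.46 (-0.49 to -0.42) and Akr1b8 at -0.43 (-0.56 to -0.31). Akr1b10 at -0.20 (-0.28 to -0.12) and Akr1b3 at -0.16 (-0.21 to -0.11) differed less. Akr1c13 was at -0.13 (-0.51 to 0.26), and its adjusted p of 0.60 missed the threshold, but it passed when the libraries were scaled to spike-ins (log2 ratio -0.55, adjusted p = 0.0055). No member passed when edgeR's exact test was given a coefficient of variation of 0.2 between biological replicates, a value set by assumption.

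The cortex markers moved the same way: 7 of 7 were higher in replicate 2 by adjusted p, with a median log2 ratio of -0.57. Their single ratios ran from -0.15 for Hsd3b1 and -0.29 for Cyp11a1 to -0.82 for Mc2r. The 6 adipose markers had a median of 0.84, and 5 of them were higher in replicate 1. The part of these shifts in the members' ratios was not tested, and in whole tissue fewer cells of a type and less RNA per cell cannot be told apart. A scaling chosen after the data were seen puts the median of the cortex markers at 0. Under it, the ratio of Akr1c18 was -0.13. That of the other 6 members tested was positive, from 0.078 for Akr1b7 to 0.44 for Akr1c13. Against a single marker the signs can differ. Cyp11a1 shifted less than Akr1b7, Akr1cl and Akr1b8 did, so against Cyp11a1 these members stay higher in replicate 2.

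Akr1c18 was also set beside the other X zone genes listed. Thrb, a thyroid hormone receptor, was higher in replicate 2 (7.07 and 11.97 TPM, log2 ratio -0.70), and Pik3c2g did not pass the test (3.89 and 4.15 TPM, log2 ratio -0.07). Xist, the RNA that coats the inactive X chromosome, was at 5.70 TPM in replicate 1 against 12.9 TPM in the other library, and the 4 Y-linked genes had counts in replicate 1 alone. The sex of the animals cannot be told apart from the library in these data.

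**Figure D5:**
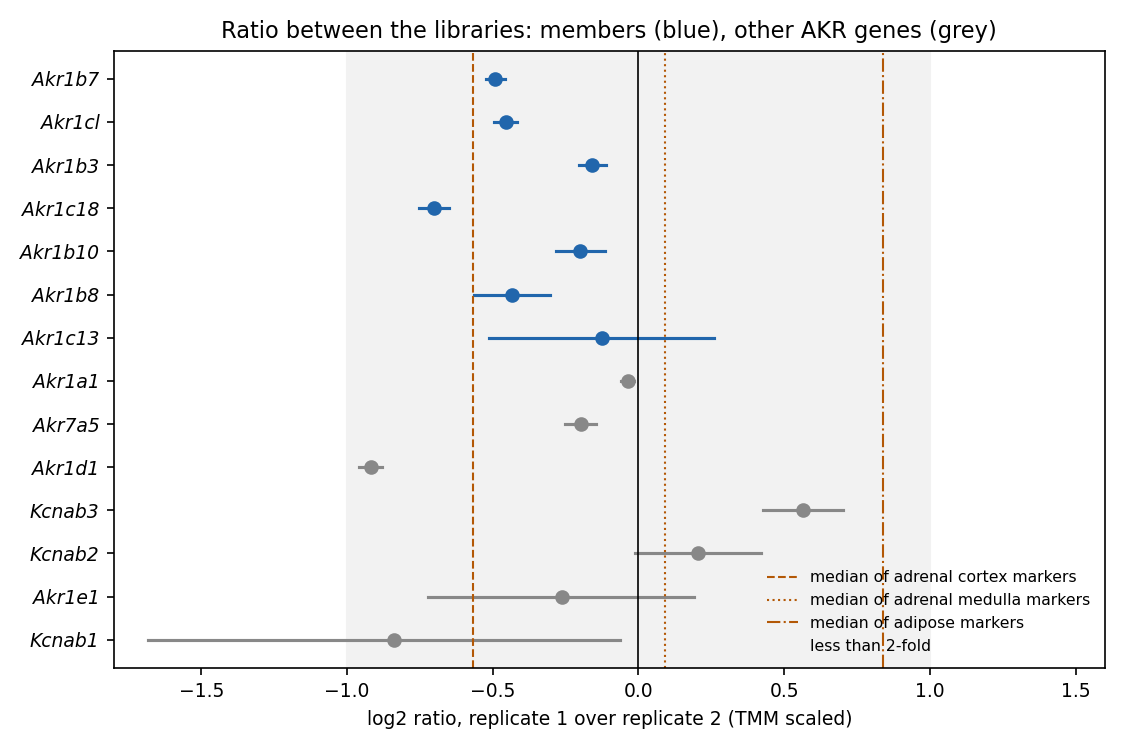
Log2 ratio of replicate 1 over replicate 2 after TMM scaling, with exact 95% intervals, for the 7 members tested (blue) and 7 other AKR genes tested (grey), ordered by level within each group. All 7 members lie left of 0, from -0.70 for Akr1c18 to -0.13 for Akr1c13. The vertical lines mark the medians of the cortex (-0.57), medulla (0.09) and adipose (0.84) markers. Scaled to the median of the cortex markers, 6 of the 7 would lie right of 0.

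Outside the 10 members, the same superfamily gave 6 further detected genes among 10 listed. Akr1a1, aldehyde reductase, was the most abundant, at 736 and 778 TPM, and exceeded Akr1b7 in both libraries. Akr7a5, an aflatoxin aldehyde reductase, was at 132 and 155 TPM. Akr1d1, the steroid 5-beta-reductase, was at 84.5 and 166.9 TPM, and its log2 ratio of -0.92 exceeded in size that of every member tested. The potassium channel beta subunits Kcnab3 (12.6 and 8.96 TPM) and Kcnab2 (3.64 and 3.22 TPM) were also detected, and Kcnab1 was at 0.28 and 0.52 TPM. Of the 7 of these genes tested, 3 were higher in replicate 2 and Kcnab3 was higher in replicate 1 by adjusted p, with a median log2 ratio of -0.20.

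Genes of the pathways that the members belong to were described by lists, with directions after TMM scaling. Scaling to spike-ins moved the median of all genes by -0.43 and scaling to the cortex markers moved it by 0.57, so ratios closer to 0 than these change sign under one of them. In the polyol list, 3 of 5 genes tested were higher in replicate 2 and 1 in replicate 1, with a median log2 ratio of -0.08, and Gpi1, a glycolytic isomerase, had the highest level at 347 ± 16.5 TPM. Khk, the fructose kinase that acts after Sord, was at 47.1 ± 9.41 TPM and the glucose transporter Slc2a1 at 45.0 ± 2.81 TPM. Among 8 aldehyde dehydrogenases, which oxidise the aldehydes that Akr1b enzymes reduce, 5 were higher in replicate 2 and 2 in replicate 1, with a median of -0.26. Aldh2 stood at 3477 and 6093 TPM, above every member of the family. By scaled counts it was 1.39-fold higher in replicate 2, less than these TPM values differ. The transcript length assigned to Aldh2 was 1106 bases in replicate 1 and 935 bases in replicate 2. Aldh3b1 was at 155 ± 51.9 TPM and Aldh9a1 at 62.5 ± 0.813 TPM.

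The prostaglandin list holds synthases, receptors, breakdown enzymes and a transporter of prostaglandins and related lipids, some of which Akr1b enzymes can also make. In this list, 7 of 19 genes tested were higher in replicate 1 and 4 in replicate 2, with a median of 0.09. The prostaglandin E synthase Ptges3 (138 ± 20.02 TPM), the receptor Ptger3 (84.3 ± 9.84 TPM) and the prostamide and prostaglandin F synthase Fam213b (74.2 ± 18.4 TPM) had its highest levels. Of 14 genes tested in the list of other steroid reductases and dehydrogenases, 2 were higher in replicate 1 and 7 in replicate 2. Their median was -0.04. Hsd3b1 had the highest level there at 3050 ± 309 TPM, Srd5a3 was at 321 ± 52.2 TPM, and Hsd17b3, the testis enzyme, had 0 counts in both libraries. Past 2-fold, the steroid 5-alpha-reductase Srd5a2 (1298 and 61.9 TPM) and Dhrs9 (34 and 12 counts) were higher in replicate 1 and Hsd17b7 (4.59 and 10.7 TPM) was higher in replicate 2. In the list of Nrf2 targets, 4 of 10 were higher in each library, with a median of 0.04. Srxn1, sulfiredoxin, was at 322 and 618 TPM, the malic enzyme Me1 at 381 and 305 TPM and Gclm, of glutathione synthesis, at 289 and 166 TPM. Slc7a11, the cystine transporter, was the 1 called gene of that list, with 2 and 20 counts.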

How the data were processed

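Gene and transcript tables for each library were used as deposited. They hold the authors' expected count, TPM, FPKM, and a score for precision (posterior SD of the count and a credibility interval of TPM whose level is not stated), from mm10 with annotation M4 per the deposited readme files. The sources used here name neither the aligner nor the quantifier. Spike-ins (0.654% and 0.485% of expected counts) were left out of the genes tested and of the TMM scaling, and were used only for the alternative scaling to spike-ins. The deposited TPM values were not rescaled without them, and mouse genes sum to 988540 TPM in replicate 1 and 990961 TPM in replicate 2. Of 43346 mouse identifiers, 42462 matched GENCODE M21 (GRCm38), which gave names, transcripts and coding sequences. Identity is from translated M21 coding sequences, since no protein table was used. Promoters are from RefSeq (GRCm38.p6).

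Counts were rounded and scaled by TMM (edgeR 4.0.16, R 4.3.3). A gene was tested if its counts summed to at least 20, with a two-sided exact binomial test (scipy 1.17.1). P-values were adjusted by Benjamini and Hochberg's method over all genes tested. The threshold was 0.05 and, for a call, 2-fold as well. Log2 ratios used a prior count of 0.5. The test was checked on simulated counts with counting error only, so the check does not cover variation between libraries. The libraries are not repeats of 1 library: a chi-square comparison gave 103 per gene. P-values cover counting error only.

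Members and lists were chosen with earlier results of these data known. Named genes are all members, all other AKR genes, and of each other list the 3 with the highest mean TPM, those called, and markers of other tissues at 0 counts in both. Sord, Cyp11a1 and the pseudogenes and antisense genes at members were named in addition, for values beside a member. Alternatives were FPKM, posterior means, other scalings, filters and pseudocounts.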

Additional observations from a re-analysis of the deposited data

How the results depend on the processing

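The summed level of the members was 887 to 1230 TPM with a single library, and 7 members were detected under each setting except a minimum of 5 TPM, which left 6. With posterior means, the levels of Akr1c6, Akr1c12 and Akr1c14 went from 0.025, 0.015 and 0.06 to 0.255, 0.045 and 0.145 TPM. The median leading transcript share of 86.1% was 79.9% with posterior means and 84.3% to 85.0% with a single library. This median includes the share of Akr1b7, fixed at 100% by its single transcript. The 1095 genes called between the libraries became 244 with an assumed coefficient of variation of 0.2, 357 on log2(TPM + 1), 9219 with no minimum fold and 2710 (2543 higher in replicate 1, 167 in replicate 2) when scaled to the cortex markers. Scaling to spike-ins shifted the median of all genes by -0.43 and split the calls into 289 and 1303, against 689 and 406 with TMM; the cortex scaling shifted it by 0.57. Members called at 2-fold numbered 0, but 6 with no minimum fold and 1 (Akr1c18, log2 ratio -1.13) with spike-ins. Members higher in replicate 2 numbered 6, but 7 with spike-ins (Akr1c13 passed), 0 with the assumed coefficient and 1 with the cortex scaling, which was chosen after seeing the data. That scaling reversed the log2 ratios of Akr1b3 (0.41), Akr1b7 (0.078), Akr1b8 (0.14), Akr1b10 (0.37), Akr1c13 (0.44) and Akr1cl (0.11). The causes were not tested. Leaving out a library leaves no comparison between libraries. No paired analysis was possible because there is 1 group. Depth limits Akr1c6, Akr1c12 and Akr1c14, each with 6 counts or fewer per library.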
